A study of Mus musculus with 8 samples.

Results

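The serpins, a superfamily of serine and cysteine protease inhibitors with some members that carry hormones or assist protein folding, were examined in mouse liver. The members were all genes whose symbol begins with Serpin, the pseudogene Serpina4-ps1 included. They numbered 63 of the 23337 genes in the count files. Of these 63, 48 had at least 1 count in some library, and 36 had 10 or more counts in at least 2 libraries and were tested, along with 14379 genes in all. By clade, clade a had 25 members (20 tested), clade b 27 (6 tested), clades c, d, g and h 1 each (all tested), clade e 3 (3 tested), clade f 2 (2 tested) and clade i 2 (1 tested). The liver RNA came from C57BL/6 mice of 12 weeks. WT mice were compared with HRD1Alb mice, labelled HRD1 KO, in which a Cre transgene driven by the albumin enhancer and promoter deletes floxed HRD1, the gene listed as Syvn1 that encodes an E3 ubiquitin ligase of endoplasmic reticulum (ER)-associated degradation. The deletion was therefore directed at hepatocytes from liver development onward, and which other liver cells kept the gene was not tested. Livers of both genotypes were taken after an overnight fast, or 4 h into refeeding that followed such a fast. This gave 4 groups (WT fasted, HRD1Alb fasted, WT refed and HRD1Alb refed) of 2 samples, 8 in all. The sources do not say whether the 2 samples of a group were single animals, so p-values measure the spread between these samples.

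An inhibitory serpin presents a reactive loop to its target protease. The protease cuts the loop and is trapped as the serpin refolds around it, so that each serpin molecule is used once. Hepatocytes secrete most of the circulating family, among them alpha-1 antitrypsin (Serpina1), antithrombin (Serpinc1), heparin cofactor II (Serpind1), alpha-2 antiplasmin (Serpinf2) and C1 inhibitor (Serping1). In mice Serpina1 and Serpina3 each expanded into several neighbouring copies. Clade b members lack a classical signal peptide and act mostly inside cells, many of them leukocytes. Corticosteroid-binding globulin (Serpina6) and thyroxine-binding globulin (Serpina7) keep the fold but carry hormones, and Serpinh1 is a collagen chaperone of the ER. Misfolded alpha-1 antitrypsin is a classic substrate of ER-associated degradation.

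Total counts per library ranged from 40210576 to 49117080, so that 3 counts, taken as the floor of detection, correspond to 0.0508 to 0.0788 CPM (counts scaled to a common library size after TMM normalization, edgeR's adjustment for library composition, with factors from 0.837 to 1.22). Syvn1, the deleted gene, had 111 and 99.8 CPM in fasted WT and 32.6 and 31.5 CPM in fasted HRD1Alb liver. In refed liver it had 637 and 305 CPM in WT and 453 and 132 CPM in HRD1Alb, so the refed groups overlapped. Its log2 difference between genotypes was -1.72 ± 0.56 (SE) fasted (adjusted p = 0.17) and -0.69 ± 0.55 refed (adjusted p = 0.389). Counts over the whole gene also include exons outside the deletion, so these values check the refed labels only weakly, and each refed genotype difference is a difference between the libraries labelled HRD1Alb and WT. The libraries of refed HRD1Alb liver stood apart from each other. Their Spearman correlation across genes was 0.956 against 0.990 to 0.995 within the other groups, and 3215 genes differed by at least 2-fold between them. The ratio between the 2 libraries correlated with exon length (rho = -0.58), against rho of -0.11 to 0.03 within the other groups. The cause was not tested. Hepatocyte markers were abundant in all libraries, with Alb at 2820947 counts or more, except Ass1, which had 25 to 122 counts. Their summed level was lower in HRD1Alb liver, at 149840 to 161140 CPM in WT and 97244 to 98286 CPM in HRD1Alb fasted, and 118510 to 125410 against 69992 to 113320 CPM refed. Of the 11 tested, 0 were called in fasted and 2 fell in refed liver, with median log2 differences of -0.48 and -0.27.

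The Serpina1 copies lie side by side on chromosome 12 and behaved unequally in HRD1Alb liver, so their upstream sequences are shown first. A RefSeq promoter entry (build GRCm38.p6, 250 bases before the start site searched) was matched for 51 of the 63 members and for 26 of the 36 tested. For the 5 copies a window of 121 bases that aligned without gaps was taken, all on the minus strand. It lay before the RefSeq start site listed first for each copy. Capitals mark bases that differ from Serpina1e; in the Serpina1e line they mark GTTAAT, the core of the hepatocyte nuclear factor 1 (HNF1) site, which lies at base 106 of all 5 windows:
Serpina1e: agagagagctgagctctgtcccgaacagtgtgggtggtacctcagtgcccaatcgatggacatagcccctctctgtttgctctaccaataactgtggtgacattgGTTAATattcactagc
Serpina1a: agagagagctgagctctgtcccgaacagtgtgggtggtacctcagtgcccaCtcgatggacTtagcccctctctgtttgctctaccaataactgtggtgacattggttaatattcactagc
Serpina1b: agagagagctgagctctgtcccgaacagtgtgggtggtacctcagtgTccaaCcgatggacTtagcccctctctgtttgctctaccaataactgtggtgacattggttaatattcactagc
Serpina1c: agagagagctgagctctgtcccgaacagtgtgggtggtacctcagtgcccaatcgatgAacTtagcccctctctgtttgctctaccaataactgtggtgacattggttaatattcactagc
Serpina1d: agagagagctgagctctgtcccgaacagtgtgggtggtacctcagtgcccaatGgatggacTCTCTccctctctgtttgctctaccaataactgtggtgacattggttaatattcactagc
The windows are chr12:103956960-103957080 for Serpina1e, chr12:103863625-103863745 for Serpina1a, chr12:103738200-103738320 for Serpina1b, chr12:103904962-103905082 for Serpina1c and chr12:103773634-103773754 for Serpina1d. Each window overlaps 0 exons of GENCODE M21, although those of Serpina1b and Serpina1e lie in introns of longer models of the same gene and that of Serpina1d in an intron of the long Serpina1b model. Serpina1a and Serpina1c differ from Serpina1e at 2 of the 121 bases, Serpina1b at 3 and Serpina1d at 6. The window ends 63 bases before the first listed RefSeq start of Serpina1e and 1 to 12 bases before those of the other copies. GTTAAT on either strand was found in the 250 bases before 6.43% of all 32851 RefSeq starts, and before 8 of the 26 tested members with an entry, namely the 5 Serpina1 copies, Serpina3c, Serpina7 and Serpinb8. The first value counts starts, and the second counts members with a match before any of their starts. The 5 Serpina1 copies are also nearly the same sequence, so the 2 values are not directly comparable.

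2 further upstream regions are shown because these genes were the hormone carrier and the ER-resident member that were higher in refed HRD1Alb liver. In the 250 bases before the first of the 2 RefSeq starts of Serpina7 (chrX:139085237-139085486, minus strand), capitals mark GTTAAT, which begins 57 bases before the start, and TATAAA, which has the letters of a TATA box but was not tested as one, 10 bases before it. In those before Serpinh1 (chr7:99353240-99353489, minus strand), capitals mark CCACG, one half-site of the ER stress response element, 172 bases before the start:
Serpina7: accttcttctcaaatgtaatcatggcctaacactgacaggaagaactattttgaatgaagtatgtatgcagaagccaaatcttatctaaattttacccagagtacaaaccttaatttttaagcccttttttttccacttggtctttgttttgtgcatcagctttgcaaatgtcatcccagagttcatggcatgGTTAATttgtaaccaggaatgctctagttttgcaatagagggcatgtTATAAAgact
Serpinh1: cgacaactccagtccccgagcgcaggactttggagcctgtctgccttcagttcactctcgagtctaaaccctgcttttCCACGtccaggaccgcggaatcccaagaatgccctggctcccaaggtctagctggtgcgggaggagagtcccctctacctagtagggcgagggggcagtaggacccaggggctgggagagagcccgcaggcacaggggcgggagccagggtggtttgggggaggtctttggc
TATAAA occurs before 12.4% of all starts and CCACG before 28.3%, on either strand. Among the 26 tested members, CCACG occurs before Serpina12, Serpina3g, Serpinb6a, Serpinf2 and Serpinh1. Further transcription factor motifs were searched. A STAT motif occurs before 5 of the 26 (7.02% of all starts) and an ATF4 and C/EBP composite motif before 1 (0.791%). The C/EBP, FOXA and heat shock element motifs occur before 0 of them. The other half-site of the ER stress response element was not searched. These matches describe letters in a window and not bound sites.

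Serpin mRNA was concentrated in a few secreted members. Ranked by mean CPM per kilobase of exon over the 8 libraries, Serpina3k stood first at 5795, followed by Serpina1e at 1700, Serpina1b at 1528, Serpina1c at 1456, Serpina1d at 1155 and Serpina1a at 772. Serping1 at 391, Serpinc1 at 367, Serpinf1 at 333, Serpinf2 at 272, Serpina3n at 268, Serpina3m at 191 and Serpind1 at 178 came next. This order pools the genotypes. Serpina1e was second in WT liver, at 4047 CPM per kilobase fasted and 2492 refed, but at 134 and 126 in HRD1Alb liver it lay below the other 4 copies, Serpinc1, Serping1 and Serpinf1. The highest clade b member, Serpinb6a, reached 7.91 on the same scale. The order within the Serpina1 group is uncertain, since 28.2% to 73.3% of the 50-base windows of their transcripts occur in another member, and how the authors' counting split such reads is not given in the sources used here.

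**Figure D1:**
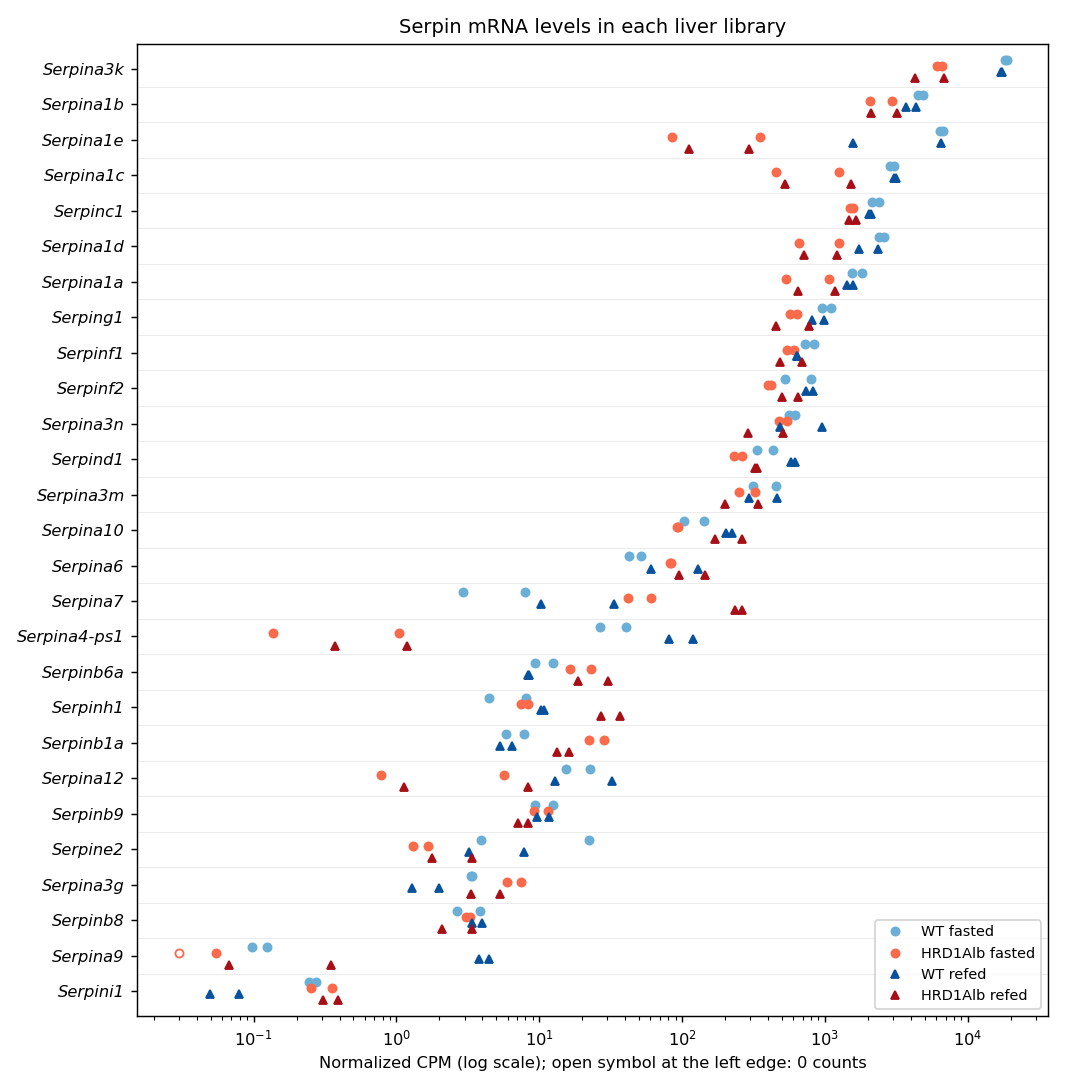
Normalized CPM (log axis) of 27 tested members named in the text, ordered by their mean, with 1 symbol for each library (circles fasted, triangles refed; blue WT, red HRD1Alb; the open circle is the 1 library with 0 counts of Serpina9). Both HRD1Alb groups lie to the left of both WT groups for Serpina3k (4237 to 6857 CPM against 17068 to 18801) and for Serpina1e and Serpina4-ps1, and to the right for Serpina7 and Serpinb1a.

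All 63 members together amounted to 41795 and 44790 CPM in fasted WT liver and 14375 and 18086 CPM in fasted HRD1Alb liver. After refeeding the sums were 41008 and 36193 CPM in WT and 12820 and 19977 CPM in HRD1Alb. The genotypes did not overlap in either feeding state. On this normalized scale the refed WT libraries both lay below the fasted ones, and the HRD1Alb libraries of the 2 states overlapped. Without normalization, serpins took 3.67% and 3.75% of all counts in fasted WT and 3.90% and 3.43% in refed WT libraries. The 2 feeding states of WT thus overlapped on that scale. In the 4 HRD1Alb libraries the share was 1.56% to 2.04%. The difference was not that of Serpina3k alone, as the other 62 members summed to 18810 to 25990 CPM in WT and 8269 to 13120 CPM in HRD1Alb libraries.

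The first question was which serpins differ between HRD1Alb and WT liver. In fasted liver, edgeR's quasi-likelihood test with Benjamini-Hochberg adjustment over the 14379 genes called 3 members. Serpinb1a rose, and Serpina3k and Serpina4-ps1 fell. Among all genes tested, 1.34% were called, 0.904% higher and 0.431% lower. In refed liver 11 members were called, against a background of 11.9% of all genes, 7.06% higher and 4.84% lower. 6 rose (Serpina3g, Serpina7, Serpinb1a, Serpinb6a, Serpinh1 and Serpini1) and 5 fell (Serpina1e, Serpina3k, Serpina4-ps1, Serpina9 and Serpind1). The 3 members called in fasted liver were called in refed liver as well. The median log2 difference was -0.41 over the 36 members against -0.02 over all genes in fasted liver, and -0.44 against 0.05 in refed liver. By a looser rule, a 2-fold difference with an unadjusted p under 0.05, 3 members were higher and 8 lower in fasted liver (6.86% and 1.52% of all genes), and 7 higher and 6 lower in refed liver (11.4% and 4.83%). Without overlap between the genotypes, 10 members were higher and 18 lower in fasted liver (30.7% and 34.2% of all genes), and 9 higher and 17 lower in refed liver (30.7% and 30.1%).

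The direction varied with the level of the member, and the part of the lower hepatocyte marker levels in these values was not tested. All 14 members with a mean of at least 100 CPM had a log2 difference below 0 in fasted liver, with a median of -0.73, where 80.7% of the 1458 tested genes at that level were below 0 and their median was -0.27. In refed liver 13 of the 14 were below 0, with a median of -0.66, against 64.1% and -0.21 for all such genes. Of the 8 members between 10 and 100 CPM, 3 were below 0 in each feeding state and the medians were 0.57 and 0.83, against -0.11 and -0.09 for all genes at that level. Of the 8 between 1 and 10 CPM, 4 were below 0 in each state. Of the 6 under 1 CPM, 1 was below 0 in fasted and 5 in refed liver, where their median was -0.12 and 29.7% of all genes at that level were below 0. The signs of all 36 members were the same under RLE scaling and after a correction for transcript length in both genotype comparisons. In bulk RNA, fewer cells of a type and less RNA per cell cannot be told apart.

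**Figure D2:**
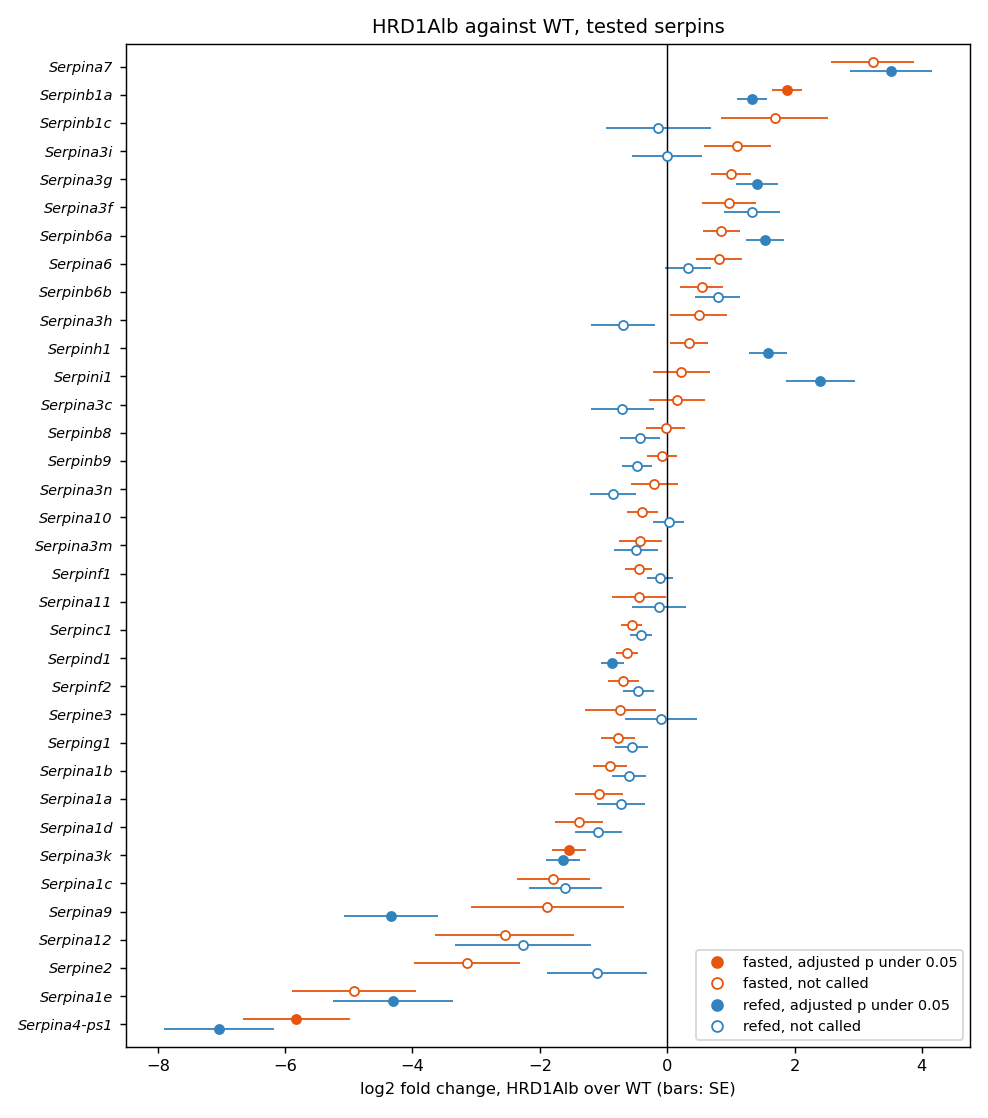
Log2 fold change of HRD1Alb over WT (x axis, bars are SE) for 35 of the 36 tested members in fasted (orange) and refed (blue) liver, filled where the adjusted p was under 0.05. Serpina4-ps1 lies farthest to the left at -5.82 and -7.04, Serpina7 farthest to the right at 3.23 and 3.51, and the plotted sizes of refed Serpini1 and fasted Serpina9 rest on groups with 5 and 3 counts in all and depend on the fit's prior count.

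These calls rested on few libraries. For a single gene, the smallest two-sided p of an exact permutation test with 2 samples on each side is 0.333, so the adjusted p-values draw on the spread shared across genes. Leaving out any 1 of the 4 fasted libraries left 0 members called in fasted liver (and 0 to 3 of all genes), and leaving out WT refed replicate 1 or 2 left 0 in refed liver (1 and 2 of all genes). Without HRD1Alb refed replicate 1, 12 of 36 members were called in refed liver, but so were 7665 of 14235 genes, and without replicate 2, 19 members and 3462 of 14297 genes were called. With the 4 refed libraries alone in the model, 0 members and 0 of 13897 genes were called by edgeR. In each of these fits the sign of every called member stayed the same.

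Serpina1a to Serpina1e are the mouse copies of the gene of alpha-1 antitrypsin, known as the main inhibitor of neutrophil elastase in plasma. Which copies inhibit elastase was not tested. The 5 copies were lower in HRD1Alb liver to different extents. Serpina1e, at chr12:103946931-103958975 on the minus strand, had 6393 and 6694 CPM in fasted WT liver and 84.7 and 349 CPM in fasted HRD1Alb liver. In refed liver it had 6500 and 1560 CPM in WT and 113 and 295 CPM in HRD1Alb. The genotypes did not overlap, although the second refed WT library was far below the other 3 WT libraries. Its log2 difference was -4.91 ± 0.97 fasted (adjusted p = 0.0598, not called) and -4.31 ± 0.94 refed, 19.8-fold lower (adjusted p = 0.0333). Without WT refed replicate 1 the refed value was -2.93, without WT refed replicate 2 it was -5.00, and without HRD1Alb refed replicate 2 it was -5.16.

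The other copies were lower in HRD1Alb liver by less, and each missed the threshold in both feeding states. Serpina1c had 2848 and 3045 CPM in fasted WT and 454 and 1255 CPM in fasted HRD1Alb liver, a log2 difference of -1.79 ± 0.58 (adjusted p = 0.166). Serpina1d had 2396 and 2596 against 653 and 1261 CPM, a difference of -1.38 ± 0.37 (adjusted p = 0.116). Serpina1a had 1552 and 1808 against 537 and 1068 CPM (-1.07 ± 0.38, adjusted p = 0.197). Serpina1b, the copy that was highest in HRD1Alb liver, had 4450 and 4824 against 2050 and 2925 CPM (-0.90 ± 0.27, adjusted p = 0.142). In refed liver Serpina1c had 3157 and 3045 CPM in WT and 527 and 1517 CPM in HRD1Alb, and the differences were -1.60 for Serpina1c, -1.08 for Serpina1d, -0.72 for Serpina1a and -0.60 for Serpina1b, with adjusted p from 0.0931 to 0.214. For all 4 copies the WT and HRD1Alb libraries did not overlap in either state. Summed into 1 feature, the 5 genes differed by -1.78 ± 0.40 fasted (adjusted p = 0.0829) and -1.36 ± 0.40 refed (adjusted p = 0.0674). The sum does not depend on how counted reads were split among the copies. Whether all shared reads were counted is not given in the sources used here, and the sum would miss those left out.

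The make-up of the summed Serpina1 counts also differed between the genotypes. Serpina1e gave 36.2% and 35.3% of the summed Serpina1a to Serpina1e counts in fasted WT liver and 36.4% and 13.6% in refed WT liver. In HRD1Alb liver it gave 2.24% and 5.09% fasted and 2.74% and 4.01% refed. Serpina1b took the larger part there, with 54.3% and 42.6% fasted and 51.3% and 43.2% refed, against 24.1% to 32.4% in the WT libraries. The exact 95% binomial interval of the Serpina1e share was 2.18% to 2.31% in the first and 5.02% to 5.16% in the second fasted HRD1Alb library, and 13.5% to 13.7% in the second refed WT library, and it covers counting error only. Serpina1c, whose transcript windows are the most shared (73.3%), ranged from 12.0% to 18.3% in fasted and from 12.8% to 20.6% in refed HRD1Alb libraries, and from 16.1% to 26.5% in WT.

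**Figure D3:**
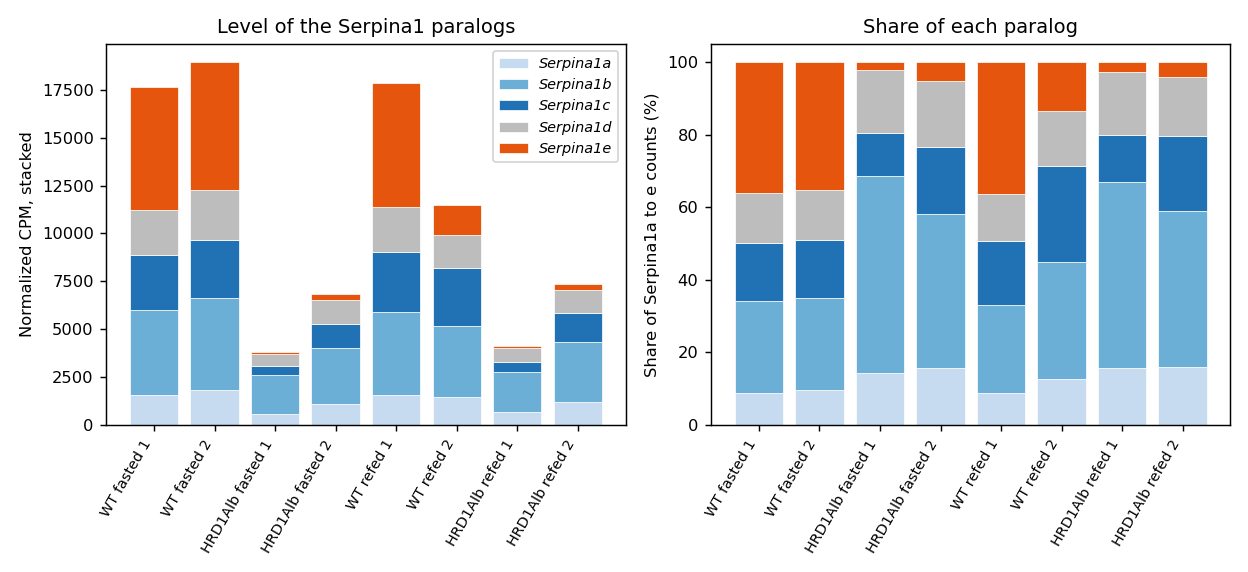
Left, normalized CPM of Serpina1a to Serpina1e stacked for each of the 8 libraries; right, the share of each copy in their summed counts (%). The Serpina1e segment (orange) is 35.3% or more in 3 of the 4 WT libraries, 13.6% in the second refed WT library and 5.09% or less in the 4 HRD1Alb libraries.

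Of the Serpina3 genes, relatives of human alpha-1 antichymotrypsin, only Serpina3k and Serpina3g passed the test in a genotype comparison. Serpina3k (contrapsin), the most abundant serpin of the liver, had 18278 and 18801 CPM in fasted WT and 6106 and 6628 CPM in fasted HRD1Alb liver. In refed liver it had 17068 and 17382 CPM in WT and 4237 and 6857 CPM in HRD1Alb. All 4 HRD1Alb libraries lay far below all 4 WT libraries. The log2 difference was -1.54 ± 0.26 fasted (2.91-fold lower, adjusted p = 0.0461) and -1.63 ± 0.26 refed (3.11-fold lower, adjusted p = 0.0155). Summed into 1 feature, the Serpina3 genes differed by -1.44 ± 0.26 fasted, which no longer passed (adjusted p = 0.0505), and -1.56 ± 0.26 refed (adjusted p = 0.0172).

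Its neighbours Serpina3n and Serpina3m were not called, and their differences were not tested against that of Serpina3k. Serpina3n, an acute-phase inhibitor, had 557 and 616 CPM in fasted WT and 541 and 480 CPM in fasted HRD1Alb liver (-0.20 ± 0.36, adjusted p = 0.831). Refed, it had 481 and 954 against 289 and 505 CPM (-0.85 ± 0.37, 95% interval -1.71 to 0.00, adjusted p = 0.151), and the genotypes overlapped. Serpina3m had 316 and 453 against 325 and 249 CPM fasted (-0.42 ± 0.34, adjusted p = 0.572) and 292 and 461 against 198 and 337 CPM refed (-0.49 ± 0.34, adjusted p = 0.331), and overlapped in both states. The gene model of Serpina3m spans Serpina3k, and 19.1% of its 50-base windows recur in another member. Serpina3g, an intracellular cathepsin inhibitor known from leukocytes, had 3.36 and 3.33 CPM in fasted WT and 5.94 and 7.50 CPM in fasted HRD1Alb liver (1.0 ± 0.32, adjusted p = 0.161). It had 1.98 and 1.29 CPM in refed WT and 3.33 and 5.35 CPM in refed HRD1Alb liver, and rose 2.65-fold there (1.41 ± 0.33, adjusted p = 0.0389). Its neighbour Serpina3f had 1.20 and 0.827 against 1.95 and 2.01 CPM fasted and 0.791 and 0.525 against 1.08 and 2.26 CPM refed, without a call (refed 1.33 ± 0.44, adjusted p = 0.0879).

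The largest log2 difference among the 36 tested members was that of Serpina4-ps1, an unprocessed pseudogene related to the kallistatin gene at chr12:104080649-104086724 on the plus strand. It had 1633 and 1096 counts in fasted WT liver and 7 and 57 counts in fasted HRD1Alb liver. In refed liver it had 3280 and 4525 counts in WT and 22 and 54 in HRD1Alb. In CPM these were 40.7 and 26.7 against 0.137 and 1.03 fasted, and 81.0 and 119 against 0.372 and 1.18 refed, with no overlap. The log2 difference was -5.82 ± 0.83 fasted (adjusted p = 0.0332) and -7.04 ± 0.87 refed (adjusted p = 0.00992). The size varied with the HRD1Alb library used: without HRD1Alb fasted replicate 1 the fasted value was -5.02 and without replicate 2 it was -7.91, and without HRD1Alb refed replicate 1 the refed value was -6.39 and without replicate 2 it was -8.06. None of its 50-base windows occurs in another member.

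Beside it on chromosome 12, Serpina12 (vaspin, known as an adipokine) and Serpina9 (centerin, known from germinal centre B cells) were also lower. Serpina12 had 22.6 and 15.5 CPM in fasted WT against 0.782 and 5.66 CPM in fasted HRD1Alb liver, and 32.4 and 12.9 against 1.13 and 8.38 CPM refed. The groups did not overlap, but the spread within HRD1Alb was large and neither difference was called (-2.55 ± 1.09, adjusted p = 0.269; -2.26 ± 1.07, adjusted p = 0.180). Serpina9 had 153 and 169 counts in refed WT liver and 4 and 16 counts in refed HRD1Alb liver, a fall of 20.2-fold (-4.34 ± 0.73, adjusted p = 0.0182). Without HRD1Alb refed replicate 1 this value was -3.53, and without replicate 2 it was -5.87. In fasted liver Serpina9 had 5 and 4 counts in WT and 0 and 3 counts in HRD1Alb, a ratio of 0.255 with an exact 95% counting interval of 0.0444 to 1.02. B cell markers, 5 of which were tested, gave 0 calls in either genotype comparison and summed to 2.22 to 3.48 CPM in WT and 3.27 to 6.01 CPM in HRD1Alb libraries.

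**Figure D4:**
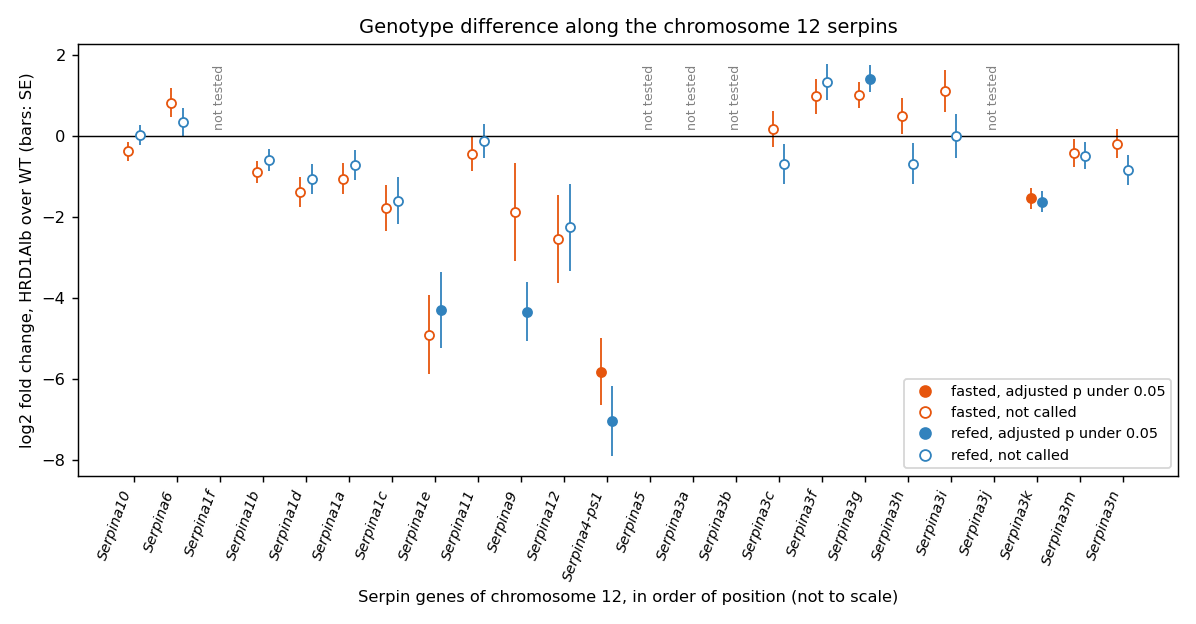
Log2 fold change of HRD1Alb over WT (y axis, bars are SE) for the 24 serpins of chromosome 12 in order of position along the x axis, fasted (orange) and refed (blue), filled where the adjusted p was under 0.05; 19 of the 24 were tested. Genes from Serpina1b to Serpina4-ps1 are below 0 and reach -7.04 at Serpina4-ps1, the genes from Serpina3c to Serpina3i are above 0 in fasted liver, and Serpina3k lies at -1.54 and -1.63.

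Sex-biased genes of the growth hormone-dependent programme of the liver also differed between the genotypes. All libraries carried RNA of Y-linked genes and had Xist at 26 counts or less. Of 17 male-biased liver genes tested, 8 fell in fasted and 10 in refed HRD1Alb liver, and 0 rose. Of 21 female-biased genes, 3 (Cyp2b13, Cyp2a22 and Hao2) rose in each state and 0 fell. The summed level of the male-biased list was 6506 to 9947 CPM in fasted WT, 1414 to 2135 CPM in fasted HRD1Alb, 4830 to 8176 CPM in refed WT and 1348 to 2603 CPM in refed HRD1Alb liver. That of the female-biased list was lower in HRD1Alb liver as well, at 11891 to 15041 against 10100 to 11868 CPM fasted and 7813 to 8520 against 6153 to 6186 CPM refed, and most of it came from Cyp4a14, with a mean of 9231 CPM over the 8 libraries. The most abundant male-biased genes called in refed liver were Mup7 (-9.45 ± 1.72; one of a multigene family whose shared reads make its value uncertain), Ugt2b1 (-1.74 ± 0.23), Slco1a1 (-2.97 ± 0.30) and Cyp4a12a (-2.93 ± 0.45). Of 13 tested genes of a growth hormone axis list, 0 were called in fasted liver. In refed HRD1Alb liver 2 of them fell (Ghr and Onecut1) and 0 rose. The part of the sex-biased programme in the serpin values was not tested.

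Of the 2 hormone carriers, Serpina7 rose and Serpina6 was not called. Serpina7, thyroxine-binding globulin, lies on chromosome X (chrX:139079257-139085236, minus strand) apart from the other clade a genes. It had 2.92 and 7.98 CPM in fasted WT and 41.7 and 60.4 CPM in fasted HRD1Alb liver, and 10.3 and 33.3 CPM in refed WT and 263 and 235 CPM in refed HRD1Alb liver. Each HRD1Alb library exceeded both WT libraries of its feeding state. Its log2 difference was 3.23 ± 0.65 fasted, which missed the threshold (adjusted p = 0.0619), and 3.51 ± 0.65 refed, an 11.4-fold rise (adjusted p = 0.0224). Without WT refed replicate 1 the refed value was 2.91, and without replicate 2 it was 4.59. Serpina6, corticosteroid-binding globulin, had 42.5 and 51.8 CPM in fasted WT and 82.1 and 83.3 CPM in fasted HRD1Alb liver (0.81 ± 0.36, adjusted p = 0.290). The refed groups overlapped for Serpina6, at 60.7 and 130 against 145 and 94.7 CPM (0.33 ± 0.36, adjusted p = 0.526). Among the 6 tested genes of a list of hormone-binding carriers, which holds both serpins, Serpina7 was the only call in either genotype comparison.

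The serpins that restrain coagulation, fibrinolysis and complement were lower in HRD1Alb liver, mostly by less than 2-fold. Serpind1, heparin cofactor II, which inhibits thrombin, had 336 and 431 CPM in fasted WT and 232 and 263 CPM in fasted HRD1Alb liver (-0.64 ± 0.18, adjusted p = 0.121). Refed, it had 580 and 616 CPM in WT and 333 and 325 CPM in HRD1Alb and fell 1.82-fold (-0.86 ± 0.18, adjusted p = 0.0289). Serpinc1, antithrombin, had 2116 and 2378 against 1493 and 1566 CPM fasted (-0.55 ± 0.17, adjusted p = 0.145), and 2025 and 2116 against 1465 and 1650 CPM refed (-0.41 ± 0.17, adjusted p = 0.136). Neither difference was called, and the groups did not overlap in either state.

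Serping1, the inhibitor of C1r, C1s and plasma kallikrein, showed -0.77 ± 0.27 fasted (952 and 1102 against 566 and 636 CPM, adjusted p = 0.186) and -0.56 ± 0.27 refed (adjusted p = 0.181). Serpinf2, alpha-2 antiplasmin, showed -0.69 ± 0.24 fasted (521 and 792 against 399 and 415 CPM, adjusted p = 0.188) and -0.45 ± 0.24 refed (adjusted p = 0.218). Serpina10, the protein Z-dependent inhibitor of factor Xa, showed -0.39 ± 0.25 fasted (103 and 141 against 92.5 and 93.9 CPM, adjusted p = 0.454) and 0.02 ± 0.24 refed. Serpina5, the protein C inhibitor, had 0 to 11 counts per library and was not tested. Among 24 tested target proteases of serpins, 0 were called in fasted liver, and 5 fell and 3 rose in refed HRD1Alb liver. Those that fell included F9 (-1.04 ± 0.16), Masp2 (-0.98 ± 0.14), Klkb1 (-1.22 ± 0.23) and F11 (-1.15 ± 0.17), and those that rose were Plau, Gzma and Gzmb.

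In clade b, the intracellular branch, the 2 members called were higher in HRD1Alb liver. Serpinb1a, an inhibitor of neutrophil elastase, cathepsin G and proteinase 3 (chr13:32842092-32851185, minus strand), had 5.83 and 7.84 CPM in fasted WT and 28.3 and 22.3 CPM in fasted HRD1Alb liver. Refed, it had 5.31 and 6.41 CPM in WT and 16.1 and 13.3 CPM in HRD1Alb. It rose 3.70-fold fasted (1.89 ± 0.24, adjusted p = 0.0238) and 2.52-fold refed (1.33 ± 0.24, adjusted p = 0.0199), with no overlap. Serpinb6a, an inhibitor of cathepsin G, had 9.32 and 12.5 against 22.9 and 16.4 CPM fasted (0.85 ± 0.29, adjusted p = 0.185) and 8.47 and 8.33 against 18.6 and 30.2 CPM refed, where it rose 2.90-fold (1.54 ± 0.30, adjusted p = 0.0247).

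Serpinb9, which inhibits granzyme B, had 9.27 and 12.5 against 11.5 and 9.17 CPM fasted (-0.08 ± 0.23, adjusted p = 0.900) and 9.71 and 11.8 against 8.36 and 7.15 CPM refed (-0.47 ± 0.23, adjusted p = 0.198). Serpinb8, an inhibitor of furin, lay between 2.10 and 3.97 CPM in all 8 libraries, with adjusted p of 0.977 and 0.346. Serpinb6b had 6.03 and 6.81 against 12.2 and 6.53 CPM fasted and 3.29 and 2.23 against 5.30 and 4.26 CPM refed, and Serpinb1c had 7 and 11 against 44 and 32 counts fasted and 18 and 15 against 5 and 32 refed. Neither was called. Of the 27 clade b genes, 21 were below the filter and 13 of them had 0 counts in every library.

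Macrophage markers were also higher in HRD1Alb liver. Of 9 tested, 1 rose in fasted and 8 in refed HRD1Alb liver, and their summed level was 107 to 117 CPM in fasted WT, 270 to 377 CPM in fasted HRD1Alb, 119 to 122 CPM in refed WT and 280 to 543 CPM in refed HRD1Alb liver. The most abundant of those called in refed liver were Clec4f (1.44 ± 0.36), Cd5l (1.83 ± 0.39), Lyz2 (2.08 ± 0.25) and Csf1r (1.18 ± 0.23). Neutrophil markers summed to 2.54 to 4.73 CPM in WT and 4.32 to 12.6 CPM in HRD1Alb libraries, with 1 of 6 called (S100a9, refed), and the defining genes Mpo and Ctsg had at most 4 and 1 counts. T and NK cell markers summed to 2.74 to 3.26 CPM in WT and 4.42 to 12.6 CPM in HRD1Alb libraries, with 3 of 10 called in refed liver. The part of these cells in the serpin values was not tested.

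Serpinh1, known as HSP47, the collagen chaperone of the ER (chr7:99345376-99353239, minus strand), stood apart among the remaining members. It had 4.44 and 8.06 CPM in fasted WT, 8.35 and 7.46 CPM in fasted HRD1Alb, 10.8 and 10.4 CPM in refed WT and 36.7 and 26.9 CPM in refed HRD1Alb liver. The fasted genotypes overlapped (0.34 ± 0.30, adjusted p = 0.607). In refed liver it rose 3.01-fold (1.59 ± 0.30, adjusted p = 0.0234). Of 22 tested collagens and collagen-processing genes, 0 were called in fasted liver, and 8 rose and 1 fell in refed HRD1Alb liver. Stellate cell and fibroblast markers summed to 182 to 410 CPM in WT and 401 to 557 CPM in HRD1Alb libraries, with 5 of 11 called higher in refed liver. ER chaperones gave 0 calls fasted and 2 of 20 (Pdia6 and Manf, both higher) refed, while targets of the PERK-ATF4-CHOP branch of the unfolded protein response gave 3 of 14 higher fasted and 10 of 14 higher refed. The part of these gene groups in the Serpinh1 value was not tested.

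Serpini1, neuroserpin, an inhibitor of tissue plasminogen activator, was barely detected. It had 2 and 3 counts in refed WT liver and 23 and 14 counts in refed HRD1Alb liver and was called higher (adjusted p = 0.0349). Because the WT counts were at or below the floor, the size is given as the ratio of summed counts, 5.55 with an exact 95% counting interval of 2.18 to 18.1. In fasted liver it had 11 and 10 against 18 and 14 counts and overlapped in CPM. Serpini2 had 0 counts in every library.

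Serpinf1, pigment epithelium-derived factor, which has no inhibitory activity, had 726 and 836 CPM in fasted WT and 542 and 604 CPM in fasted HRD1Alb liver (-0.45 ± 0.21, adjusted p = 0.311) and overlapped in refed liver (-0.11 ± 0.21, adjusted p = 0.714). Serpine2, protease nexin 1, had 22.3 and 3.92 CPM in fasted WT and 1.66 and 1.31 CPM in fasted HRD1Alb liver (-3.14 ± 0.83, adjusted p = 0.114). Mesothelial markers had a similarly wide range among the fasted WT libraries, from 4.83 to 29.1 CPM summed, and their part in the Serpine2 value was not tested.

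The second question was whether refeeding changed serpin mRNA within each genotype. In WT liver 1 of 36 members was called, against 2.59% of all genes in either direction (1.2% higher and 1.39% lower). By the 2-fold rule 4 were higher and 3 lower, against 3.1% and 3.76%. Serpina9 rose from 5 and 4 counts in fasted to 153 and 169 counts in refed WT liver, 36.2-fold (5.18 ± 0.80, adjusted p = 0.0308), and it had 4 and 16 counts in refed HRD1Alb liver. In HRD1Alb liver 2 members were called, against 10.4% of all genes (5.42% higher and 5.01% lower), and 4 were higher and 2 lower by the 2-fold rule, against 6.96% and 6.59%. Serpinh1 rose 4.03-fold (2.01 ± 0.30, adjusted p = 0.0120), and Serpina10 rose 2.31-fold, from 92.5 and 93.9 to 169 and 262 CPM (1.21 ± 0.25, adjusted p = 0.0282). Of 20 tested ER chaperones, 8 rose with refeeding in WT and 12 in HRD1Alb liver, and 0 fell in either. Their part in the Serpinh1 value was not tested. The refeeding comparison of a genotype shares its libraries with the genotype comparisons.

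Other members were higher after refeeding in both genotypes without passing the test. Serpina7 showed 2.0 ± 0.62 in WT (adjusted p = 0.164) and 2.29 ± 0.61 in HRD1Alb (adjusted p = 0.0566). Serpind1 showed 0.64 ± 0.18 in WT (adjusted p = 0.124) and 0.41 ± 0.18 in HRD1Alb (adjusted p = 0.157), Serpina10 in WT showed 0.79 ± 0.25 (adjusted p = 0.163), and Serpinh1 in WT showed 0.76 ± 0.30 (adjusted p = 0.264). Serpina3k, Serpinc1, Serpina1b and Serping1 had log2 differences between -0.21 and 0.09 in both genotypes. Calls in these comparisons also rested on few libraries, although no single library set the sizes. With 1 library of the comparison left out, the log2 difference of Serpina9 in WT ranged from 5.04 to 5.36. In HRD1Alb liver that of Serpinh1 ranged from 1.77 to 2.22 and that of Serpina10 from 0.862 to 1.49. Without any 1 of the 4 WT libraries, 0 members were called in WT. In HRD1Alb liver 0 were called without either fasted library, 7 without refed replicate 1 (7476 of 14235 genes in all) and 4 without refed replicate 2 (2894 of 14297), and 0 with the 4 HRD1Alb libraries alone in the model. After a correction for transcript length, on which the refed HRD1Alb libraries differed, 22 of the 36 members were below 0 in HRD1Alb liver instead of 15, so no direction is given for the family.

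**Figure D5:**
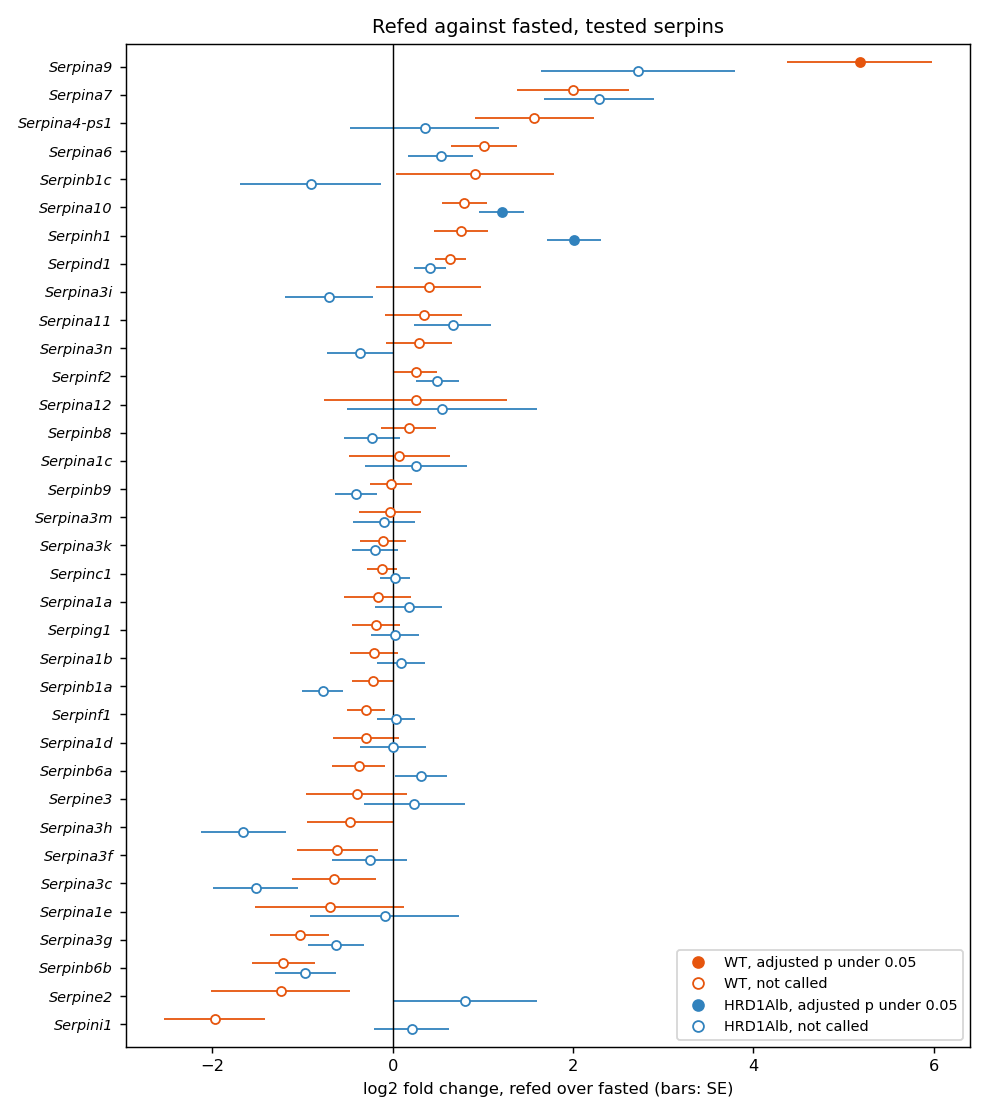
Log2 fold change of refed over fasted liver (x axis, bars are SE) for 35 of the 36 tested members in WT (orange) and HRD1Alb (blue), filled where the adjusted p was under 0.05. Serpina9 in WT lies at 5.18, Serpinh1 and Serpina10 in HRD1Alb lie at 2.01 and 1.21.

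Whether the genotype difference itself changed with feeding was tested by the interaction term. edgeR called 0 of the 36 members and 0 of the 14379 genes. At an unadjusted p under 0.05 there were 2 members, Serpini1 (adjusted p = 0.562) and Serpinh1 (1.25 ± 0.42, adjusted p = 0.569), and 1211 genes in all (8.42%). These 2 were also the members past the 2-fold rule, against 2.19% of all genes with a positive and 2.3% with a negative term. The DESeq2 Wald test called 0 members and 91 genes, and limma-trend 0 members. Members called in one feeding state only are therefore not shown to differ between the states. Without HRD1Alb refed replicate 1 the interaction gave 2 calls among the members, Serpinb6a and Serpinf1, beside 4899 of 14235 genes.

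Other protease inhibitors of the liver were compared as a fixed list. Of 21 tested, Mug1, a murinoglobulin that traps proteases of several classes, fell in both fasted (-1.28 ± 0.18, adjusted p = 0.0328) and refed HRD1Alb liver (-1.34 ± 0.18, adjusted p = 0.0117). Refed, Pzp also fell (-0.78 ± 0.18), and Spint2 (0.83 ± 0.19) and Timp1, which had 0 and 1 counts in refed WT and 54 and 49 counts in refed HRD1Alb liver, rose. The list had a median log2 difference of -0.24 fasted and 0.24 refed. Acute-phase genes gave 0 of 22 calls fasted, and 3 rose and 2 fell refed. The list of coagulation and fibrinolysis partners, with a median of -0.48 fasted and -0.52 refed, gave 0 of 23 calls fasted, and 1 rose and 5 fell refed.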

How the data were processed

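Liver RNA was sequenced by the authors on an Illumina NextSeq 500, 1 lane per sample. Their methods name ERANGE for read counts, and the submitters' processing notes list cutadapt, STAR, HTSeq, DESeq2 and mm10; which of these made the files is not given in the sources used here. The values they deposited are whole-number counts per gene symbol, 1 file for each sample, without normalization. Positions, exon lengths and shared 50-base windows came from GENCODE M21 (GRCm38), matched by symbol for 98.0% of symbols and all 63 serpins, and promoters from RefSeq. Strandedness was not stated.

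The main model was edgeR 4.0.16, run under R 4.3.3. Genes with 10 or more counts in at least 2 samples were kept, TMM normalization was applied, and 1 quasi-likelihood model with 4 groups was fitted to the 8 samples. Groups came from the sample labels. Contrasts were HRD1Alb against WT in each feeding state, refed against fasted in each genotype, and the interaction, with Benjamini-Hochberg adjustment over all genes and a threshold of 0.05. SE was derived from the log2 fold change and the F statistic. Values are normalized CPM. Fits were tested on simulated data. Alternatives used DESeq2 1.42.0, limma 3.58.1, RLE, other filters, fewer samples, a replicate block, a length correction and summed paralogs. Members named were those called in any contrast, the highest per kilobase in each clade, and a fixed set of liver serpins. The values of 1 tested member are not reported here; it remains in the counts of members. The members and lists were chosen with earlier results of these data known. Same-numbered samples of different groups correlated with r of 0.0180 to 0.175 in 6 pairs of groups, and the labels tie them to nothing shared, so they were not treated as pairs. Plots used matplotlib 3.10.9 under Python 3.11.15.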

Additional observations from a re-analysis of the deposited data

How the results depend on the processing

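With 2 samples per group the number of calls depended on how the spread was estimated. In fasted liver the 3 members called for genotype became 11 by the DESeq2 Wald test, 5 by limma-trend, 5 without a filter on low counts, 12 with only the 2 groups compared, 7 after a length correction, 8 with the replicate block and length correction, 11 by a 2-fold rule with unadjusted p, and 0 to 0 with each sample left out in turn. In refed liver the 11 became 0 with only the 2 groups compared, 17 after length correction, 18 with block and length correction, and 0 to 19 with a sample left out. For refeeding in WT the 1 became 4 by DESeq2, 5 with only the 2 groups, 7 by the 2-fold rule and 0 to 0 with a sample left out; in HRD1Alb the 2 became 6 by DESeq2, 0 with only the 2 groups, 6 after length correction, 5 with block and length correction, 6 by the 2-fold rule and 0 to 7 with a sample left out. The 0 of the interaction became 2 by the 2-fold rule and 0 to 2 with a sample left out. The share of all genes called moved with these counts. In fasted liver 192 of 14379 genes became 1087 by DESeq2, 260 by limma-trend, 323 of 18084 without a filter, 2038 of 14001 with only the 2 groups, 855 after length correction, 661 with block and length correction and 1205 by the 2-fold rule, and in refed liver 1711 became 0, 2696 and 2585 under the settings listed. For refeeding, 372 became 1063, 1875 and 987 in WT, and 1501 became 2891, 0, 2237, 2106 and 1948 in HRD1Alb, in the order given, and the interaction gave 646 by the 2-fold rule. With the replicate block alone the counts were 4, 9, 1, 3 and 0 in the same order, and in refed liver Serpina3g and Serpini1 were lost. Where a sample is left out, the lone sample of its group is assumed to vary like the other groups, and fewer samples are in the fit. The cause of the other changes was not tested. Over 17 called gene results and 231 alternatives, 174 kept direction and side of the threshold, 57 kept direction and lost the threshold, and 0 reversed.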
